A study of Arabidopsis thaliana with 32 samples.

Results

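The comparison is that of Arabidopsis seedlings that overexpress MCU2 (2OX) with wild type, in RNA from the monosome fraction. MCU2 is 1 of the 6 MCU proteins of Arabidopsis. Members were chosen by the labels: the 3 monosome libraries of 2OX (replicates 1, 2 and 3) and the 3 of wild type that share their table (replicates 2, 3 and 4), which are 6 of the 32 libraries of the series. Both groups were untreated 10-day-old whole seedlings in the Col-0 background, grown vertically on MS plates. By the labels 2OX differs from wild type in genotype only. The methods describe MCU-YFP fusions under the constitutive 35S promoter, and the study took a single strongly expressing line for its detailed work, so 2OX stands for 1 line (the labels give only 2OX). For values side by side the text also uses the sextuple mutant, untreated and of the same age. It also uses 10-day-old wild type seedlings moved from plates to liquid medium and, by the methods, kept there overnight with shaking in the dark. They were then given 50 µM antimycin A (AA), or DMSO, for 5 hours by the labels. Of 24712 genes listed in the table, 19637 reached 10 in 3 or more of the 6 libraries and were tested. The values are signals per gene that the authors adjusted for library size, so they are comparable between these 6 libraries and are not reads.

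In animals, MCU forms the calcium pore of the inner mitochondrial membrane, and EF-hand proteins of the MICU family gate it. When plant mitochondria are disturbed, NAC transcription factors such as NAC013 and NAC017 carry the signal to the nucleus, a route called mitochondrial retrograde signalling. They bind the mitochondrial dysfunction motif in the promoters of their targets, among which AOX1A, the alternative oxidase that bypasses part of the respiratory chain, and UPOX, a small mitochondrial protein induced by oxidative stress, are the best known. A transcript on a single ribosome sediments with the monosomes, so a value in this fraction depends on how much of the transcript a seedling holds and on how it is loaded with ribosomes. In whole seedlings, fewer cells of a type and less RNA per cell cannot be told apart.

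Each of the 6 libraries had 19199 to 19633 genes at 10 or more. Ribosomal RNA genes took 29.8% to 63.4% of the summed values. 2OX replicate 2 had the highest share, and chloroplast genes took 2.88% of its other signal against 0.642% to 1.46% in the other libraries. Its mean correlation with the other 5 libraries was the lowest (0.933, the others 0.941 to 0.950). Genes of the mitochondrial genome, all 10 of which had a log2 change above 0 (median 0.37), had 5 of 10 above 0 without this library and 4 of 10 without wild type replicate 4. Those of the chloroplast genome had 19 of 29 above 0 (median 0.26), and a median of 0.03 without either of these libraries. Root, leaf, guard cell and phloem markers were above 0 in every library. The flower markers AG and AP3 were at most 23.2, SEP3 read 11.2, 27.8 and 30.5 in 2OX and 40.0, 78.8 and 56.2 in wild type, and the seed storage genes CRU1 and CRU3 reached 366 and 214. Of the 23 tissue markers tested 0 were called, and the summed values of each marker list overlapped between the groups. The part of these differences between libraries in the results was not tested beyond the values without single libraries.

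In monosome RNA, 12 genes rose in 2OX and 5 fell, which is 17 of 19637 genes or 0.0866% (0.0611% higher and 0.0255% lower; limma on log2(value + 1), Benjamini-Hochberg adjusted p under 0.05 over all genes tested). At an unadjusted p under 0.05 there were 962 genes, or 4.9%. The groups of 3 did not overlap in any of the 17 genes, against 10.0% of all genes tested (4.95% with every 2OX value above and 5.09% below). The 17 were chosen by p on the same values, so their lack of overlap is no separate support. UPOX, AT2G04050 and AT5G52940 stayed called whichever of the 6 libraries was left out. The count fell to 5 and 4 without 2OX replicates 1 and 3 and to 10, 6 and 9 without wild type replicates 2, 3 and 4, and it rose to 30 without 2OX replicate 2, with 14 of the 17 among them. Without a variance trend in the fit 8 genes were called, 3 of them among the 17. Among the 12 genes that rose, 7 could enter the test only because of their 2OX values (AT5G52940, AT4G12735, AT2G42065, AT5G09570, AT3G58150, AT5G24640 and NAC044), so their number is no support for the direction. The called genes are listed here by what they encode. Mitochondrial proteins or relatives of them are UPOX, AT5G09570 (a Cox19-like CHCH protein), AT3G58150 (of the OPA3 family), ALAAT2 (an alanine aminotransferase) and MCU2 itself. Efflux carriers of the MATE family are AT2G04050 and DTX1. The others that rose are AT5G52940 (a DUF295 protein), AT2G42065 (a DnaJ domain protein), the transcription factor NAC044, and AT4G12735 and AT5G24640, which the annotation leaves uncharacterized. The genes that fell are RCI2A and RCI2B, small membrane proteins induced by cold and salt, the auxin-induced SAUR20, AT5G24240 (a phosphatidylinositol 4-kinase gamma-like protein) and AT4G04223, a non-coding RNA.

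**Figure D1:**
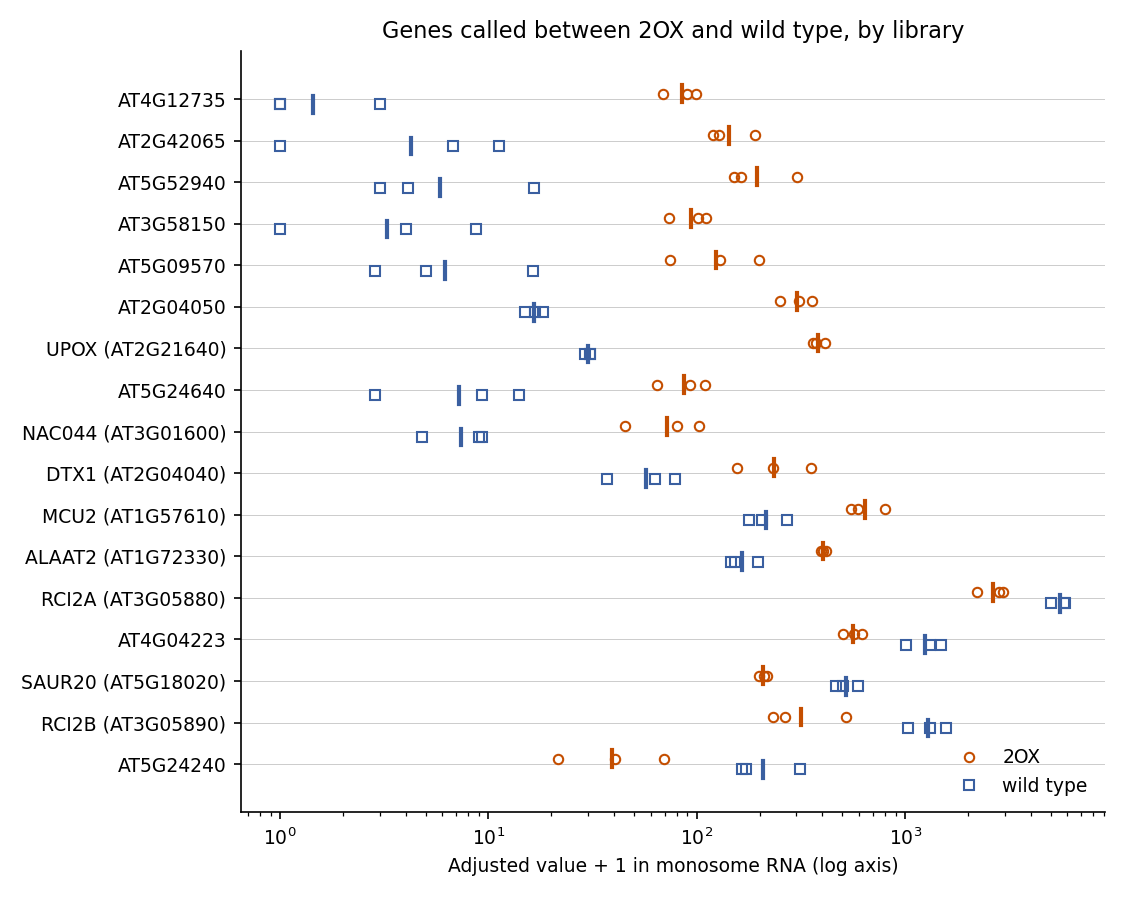
Adjusted value + 1 in monosome RNA (log axis) of the 17 called genes in each library. Open circles are the 3 2OX libraries, open squares the 3 wild type libraries, and the vertical bar is the mean on the log scale. The groups are apart for all 17 genes, 12 with 2OX to the right and 5 with 2OX to the left.

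The mitochondrial dysfunction motif was searched for in the promoters, since UPOX is among the genes that rose. It was searched in a pair of forms on both strands: CTTG, any 5 bases, then CAAG (the first form, which reads alike on both strands), or CTTG, any 5 bases, then CACG (the second form). A site cannot match both forms. In the 300 bases before the annotated gene start (RefSeq, TAIR10.1), 202 of the 18979 protein-coding genes tested (1.06%) and 377 of all 27443 protein-coding genes (1.37%) held a match. Of the 12 genes that rose, 7 held one (58.3%). Of these 12, 7 were under 10 in at least 1 wild type library and so reached the filter through 2OX, where they were high (5 of the 7 held the motif), and 5 were at 10 or more in every wild type library (2 of the 5 held it, UPOX and AT2G04050). Of the 4 protein-coding genes that fell, 0 did. UPOX, a known target, prompted the search, so its own match was foreseen and adds no support to these counts, which include it. Both promoters shown next come from genes with the lowest p in the comparison. That of UPOX holds 1 match and that of AT2G04050 holds 2 (fixed letters of the motif in capitals, 5′ to 3′ on the strand of the gene).
UPOX, chr2:9254078-9254377, plus strand: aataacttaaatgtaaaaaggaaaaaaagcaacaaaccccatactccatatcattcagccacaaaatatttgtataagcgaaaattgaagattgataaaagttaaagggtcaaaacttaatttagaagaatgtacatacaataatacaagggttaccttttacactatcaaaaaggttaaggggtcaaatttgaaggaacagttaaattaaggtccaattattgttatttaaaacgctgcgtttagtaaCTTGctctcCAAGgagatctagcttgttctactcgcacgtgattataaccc
AT2G04050, chr2:1339469-1339768, minus strand: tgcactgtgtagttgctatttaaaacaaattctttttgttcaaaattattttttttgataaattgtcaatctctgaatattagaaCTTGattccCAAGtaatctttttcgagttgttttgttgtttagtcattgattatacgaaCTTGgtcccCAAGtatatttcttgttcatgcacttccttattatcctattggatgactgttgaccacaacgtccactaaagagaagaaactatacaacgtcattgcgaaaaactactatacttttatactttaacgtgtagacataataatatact

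The matches lay close to the gene start. The first base of the site was 51 bases before the start in UPOX, 215 and 156 in AT2G04050, 181 and 109 in AT4G12735, 55 in AT2G42065, 25 in AT3G58150, 80 in AT5G24640 and 65 in NAC044. Over 500 bases the count of the 12 remained 7, and the share of genes tested with a match was 1.75%. A wider window from 1000 bases before to 200 bases after the start, chosen after the first result was seen, held a match in 10 of the 12 (83.3%) against 4.46% of the genes tested. The 3 it added lay 43 bases (AT5G52940), 14 bases (AT5G09570) and 97 bases (ALAAT2) after the start. MCU2 and DTX1 held none in this window. The 10 include all 7 genes that reached the filter through 2OX, and of the 5 others UPOX, AT2G04050 and ALAAT2. The sites themselves, with the fixed letters in capitals, read as follows, with those of AT5G09570, ALAAT2 and AT5G54100 on the strand opposite to the gene. They are the sites of the 10 genes and of the next genes by p described later.
UPOX: CTTGctctcCAAG
AOX1A, second site: CTTGctctcCAAG
AOX1A, first site: CTTGgcgacCACG
AT2G04050, first site: CTTGattccCAAG
AT2G04050, second site: CTTGgtcccCAAG
AT4G12735, first site: CTTGaacttCACG
AT4G12735, second site: CTTGgccgcCAAG
AT2G42065: CTTGgagacCAAG
AT3G58150: CTTGcacggCAAG
AT5G24640: CTTGgtggaCAAG
NAC044: CTTGgggagCAAG
LETM1: CTTGgggttCAAG
AT5G52940: CTTGgtgggCAAG
AT5G54550: CTTGgtgggCAAG
AT5G52930: CTTGgtgggCACG
AT5G09570: CTTGcccgtCACG
ALAAT2: CTTGtcctcCACG
AT5G54100: CTTGcttatCACG
AT2G18193: CTTGcaccgCACG
UPOX and the second site of AOX1A carry the same 13 bases, and so do the DUF295 genes AT5G52940 and AT5G54550. The 300 bases before the start overlap an annotated neighbour in AT4G12735, AT2G42065, AT3G58150, AT5G24640 and AT5G54550. A match in those genes may lie in or beside the neighbour. The 300 bases also do so in AT5G52940 and ALAAT2, where the match lies after the start. In UPOX, AT2G04050, NAC044, LETM1 and AT5G54100 only the 500 bases overlap a neighbour, and the matches lie within the 300 bases. A match is a run of letters and not a measured binding site.

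**Figure D2:**
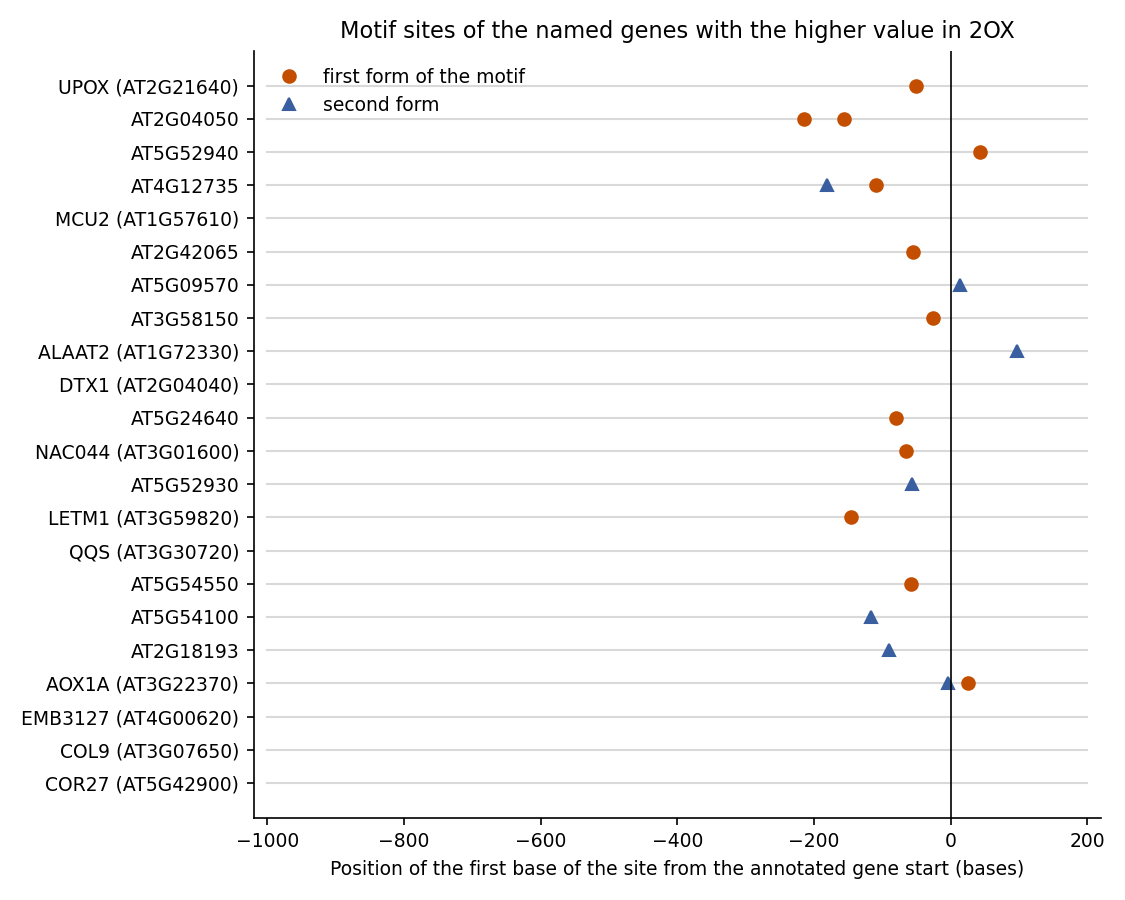
Position of each match to the mitochondrial dysfunction motif from the annotated gene start (bases; 0 is the start, negative is upstream) for the protein-coding genes with the higher value in 2OX among the 17 called and the next 13 by p. Circles are the first form (ending in CAAG) and triangles the second (ending in CACG), and the searched window ran from 1000 bases before to 200 after the start. All 19 sites lie between 215 bases before and 97 bases after the start.

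Read the other way, 7 of the 202 tested genes with a match in the 300-base window were called, all higher (3.47%). Of the 18777 without one, 9 were called (0.0479%). The 7 are the genes already counted above. Of these 7, 5 were under 10 in at least 1 wild type library and so reached the filter through 2OX. Only 2, UPOX and AT2G04050, were at 10 or more in every wild type library. The share called and its direction are therefore no separate support. Of the 202 genes, 114 (56.4%) had a log2 change above 0 with a median of 0.05, against 47.5% and -0.02 for the genes without a match. At an unadjusted p under 0.05, 29 of the 202 were higher and 3 lower, against 393 and 497 of the others. A change over 1 on the log2 scale was seen in 25 of the 202 genes and one under -1 in 3. Of the 18777 genes without a match, 259 had a change over 1 and 447 had one under -1. Genes low in 1 group could pass the filter through the other group, so these counts depend in part on the filter. Most of the 202 genes with a match thus had changes between -1 and 1 on the log2 scale. All 7 called genes with a match held the first form, which 120 tested genes carried (5.83% called). Of the 7, 1 also held the second form, which 84 carried (1.19% called). These shares rest on the same 7 genes and have the same limit.

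UPOX had the lowest p. Its values were 412, 373 and 359.9 in 2OX replicates 1, 2 and 3 and 28.0, 29.8 and 29.8 in wild type replicates 2, 3 and 4. The lowest 2OX library thus lay far above the highest wild type library, and both groups were tight. The log2 change was 3.66 (SE 0.27, n = 3 against 3, limma adjusted p = 1.37e-05). The same genotypes gave 3.82 in polysome RNA (SE 0.16, limma adjusted p = 5.32e-08). UPOX lies on chromosome 2 from 9254378 to 9255743 on the plus strand.

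The MATE carrier gene AT2G04050 came second. Its values were 308, 251 and 356 in 2OX and 14.0, 17.3 and 15.7 in wild type, a log2 change of 4.19 (SE 0.32, limma adjusted p = 1.49e-05). Its neighbour DTX1 (AT2G04040), which exports toxic compounds from the cell, lies 629 bases away with no gene between on the same strand, and read 232, 154 and 352 in 2OX and 36.02, 77.9 and 62.0 in wild type (log2 change 2.04, SE 0.35, limma adjusted p = 0.0476). The groups did not overlap in either gene, and the 2OX libraries spread more widely in DTX1. Of all 50-base stretches of the DTX1 transcripts, 21.5% occur in other annotated transcripts, mostly those of AT2G04039 on the opposite strand, so part of its reads may belong to other genes, and whether strand was used in counting is not given in the sources used here. For AT2G04050 the share was 3.53%.

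DUF295 proteins are a large family in Arabidopsis, some members of which are directed to organelles. Of 69 DUF295 genes in the annotation, 42 were listed and 16 tested. AT5G52940 had values of 162, 303 and 149.8 in 2OX and 2.0, 15.5 and 3.11 in wild type (log2 change 5.05, SE 0.61, limma adjusted p = 0.00337). Its neighbour AT5G52930, 241 bases away on the same strand, read 77.1, 64.4 and 80.1 against 6.0, 11.5 and 13.4 and did not pass (log2 change 2.79, limma adjusted p = 0.0605). AT5G54550 read 59.4, 50.9 and 23.6 in 2OX and was listed at 0 in all 3 wild type libraries, so no fold is given. AT5G54560, beside it in number, read 32.1, 11.7 and 13.3 against 3.0, 3.87 and 0 and did not pass (limma adjusted p = 0.987). In AT5G54450, which missed the filter, the 2OX values were 43.4, 7.09 and 27.2 and the wild type libraries were again at 0. AT1G30160 was the only other tested member with groups apart, at 16.9, 24.5 and 24.2 against 12.01, 3.79 and 8.27, and in the other 11 the groups overlapped. The family had 11 of 16 members above 0 and a median log2 change of 0.19, against -0.01 over all genes tested, and the median was 0.02 without 2OX replicate 2 and 0.53 without wild type replicate 3. AT5G52940, AT5G52930, AT5G54550, AT5G54560 and AT1G30160 were under 10 in at least 1 wild type library and so reached the filter through 2OX. The count above 0 and the median of the 16 therefore depend in part on the filter and are no support for a direction. Shared 50-base stretches with other genes made up at most 0.954% of the transcripts of AT5G52930, AT5G52940 and AT5G54550.

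A further 3 genes that rose were at most 10.2 in wild type. AT4G12735 read 67.7, 88.5 and 98.3 in 2OX and 2.0, 0 and 0 in wild type (log2 change 5.88, SE 0.82, limma adjusted p = 0.0118). AT2G42065 read 127, 190.1 and 119.0 in 2OX against 0.0006, 5.76 and 10.2. AT3G58150 read 109, 101 and 72.9 against 3.0, 7.76 and 0. These 3 had wild type libraries at or near 0, so the size of their fitted changes, 5.88, 5.08 and 4.84, depends on the added 1.

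AT5G09570 read 128, 198 and 73.4 in 2OX and 4.0, 1.87 and 15.4 in wild type (log2 change 4.33, SE 0.65, limma adjusted p = 0.0161). AT5G24640 read 92.2, 63.2 and 109 against 13.01, 1.86 and 8.28 (log2 change 3.60, limma adjusted p = 0.0476). NAC044, a NAC factor of the DNA damage response, read 44.1, 101 and 79.3 against 8.01, 3.8 and 8.35, and passed by the smallest margin (log2 change 3.28, limma adjusted p = 0.0496). Without any 1 of the 6 libraries NAC044 was no longer called (limma adjusted p 0.105 to 0.183). In all of these genes the lowest 2OX library was above the highest wild type library.

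Among the genes already well expressed in wild type, MCU2 and ALAAT2 rose. MCU2 read 593, 549 and 800.3 in 2OX and 177, 204 and 269 in wild type, a log2 change of 1.58 (SE 0.22, limma adjusted p = 0.0118). The table cannot separate transcripts of the transgene from those of the resident gene. ALAAT2 read 403, 415 and 394 against 152, 145 and 196 (log2 change 1.305, SE 0.21, limma adjusted p = 0.0288). Its 2OX libraries were the tightest of all called genes that rose.

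The other MCU genes did not pass the test. MCU1 read 173, 184 and 183 in 2OX and 200.1, 206 and 164 in wild type. MCU3 read 943, 765 and 708 against 844, 667 and 778, and MCU6 read 556, 339.9 and 461 against 413, 337 and 307. The groups of these 3 genes overlapped. MCU4 was low, at 45.2, 29.2 and 36.9 in 2OX and 25.0, 5.71 and 4.67 in wild type, with no overlap (log2 change 1.91, SE 0.68, limma adjusted p = 0.927). MCU5 was at most 14.0 in any library and was not tested. MICU, which encodes the EF-hand regulator of the pore, was the most abundant of the group at 4973 to 6801 in 2OX and 5869 to 7189 in wild type (log2 change -0.17, SE 0.17, limma adjusted p = 0.998).

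The 5 genes that fell were all clearly present in wild type. RCI2A and RCI2B lie on the same strand of chromosome 3 with 515 bases and 1 annotated gene between them. RCI2B read 265, 519 and 231 in 2OX and 1322, 1564 and 1027 in wild type (log2 change -2.02, SE 0.26, limma adjusted p = 0.00761). RCI2A was the more abundant of the pair in these values at 2814, 2939.6 and 2206 against 5798, 5882 and 5006 (log2 change -1.07, SE 0.16, limma adjusted p = 0.0187). Both transcripts share no 50-base stretch with another gene. 2OX replicate 2 was the highest of its group for both.

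SAUR20 read 209.7, 197 and 216 in 2OX and 465, 503 and 595 in wild type (log2 change -1.32, limma adjusted p = 0.0161), and 5.83% of its stretches occur in the neighbouring SAUR gene AT5G18010. AT5G24240 read 20.6, 39.4 and 68.7 against 172, 312 and 163 (log2 change -2.40, SE 0.41, limma adjusted p = 0.044). AT4G04223 read 566, 620.2 and 502 against 1005, 1312 and 1482 (log2 change -1.15, limma adjusted p = 0.0271). Of the stretches of AT4G04223, 69.6% occur in other transcripts (AT3G56210 and AT5G38005), so its values cannot be assigned to it alone.

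The next 13 genes by p with groups apart, 11 higher and 2 lower in 2OX, missed the threshold (limma adjusted p 0.0605 to 0.136), and their values are given as a description. Several encode mitochondrial proteins. LETM1, of an inner membrane family, read 351, 308 and 239.7 in 2OX and 90.1, 94.1 and 148 in wild type. AT5G54100, of the SPFH family of membrane scaffold proteins, read 245, 262 and 237 against 80.1, 109.5 and 118. AOX1A read 1019.6, 879.9 and 939 against 491, 596 and 494 (log2 change 0.85, SE 0.17, limma adjusted p = 0.128). In AOX1A every 2OX library was above every wild type library, and the change was the smallest of the 11. In polysome RNA AOX1A was called (log2 change 1.07, SE 0.16, limma adjusted p = 0.00812), and of the 13 genes 7 were, the others being AT5G52930, QQS, AT3G16670, AT5G54550, AT5G54100 and COL9. Of the 10 protein-coding genes among these 11, 5 held the motif in the 300-base window (50.0%), and of the 2 that were lower 0 did. The share over the protein-coding genes tested was 1.06%. The 5 are AT5G52930, LETM1, AT5G54550, AT5G54100 and AT2G18193, a P-loop nucleoside triphosphatase that read 104, 27.1 and 108 against 3.0, 5.75 and 10.14. AT5G52930, AT5G54550 and AT2G18193 were under 10 in at least 1 wild type library and so reached the filter through 2OX, where they were high.

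QQS, which encodes a small orphan protein that affects starch content, read 272, 145 and 180.2 in 2OX and 80.1, 42.2 and 25.2 in wild type (log2 change 2.098, limma adjusted p = 0.0826). The transcribed pseudogene AT1G03580 read 1040.5, 268 and 623 against 200.1, 106 and 119.7, and passed without 2OX replicate 2, its lowest 2OX library (limma adjusted p = 2.73e-05). EMB3127, an amino acid dehydrogenase family protein, read 239, 324 and 296 against 130.1, 110.4 and 142. Those lower in 2OX were AT3G16670, an extensin-like protein, at 282, 365 and 308 against 507, 999.9 and 822, and the glutathione transferase GSTU20 at 891, 873 and 962 against 1446, 1607 and 1581.

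Clock-related genes appeared among the next by p as well. COR27, an evening gene of the clock and of the cold response, read 2085, 1181 and 1748 in 2OX and 656, 330.3 and 933 in wild type. COL9, a CONSTANS-like regulator of flowering, read 1305, 1125 and 1249.8 against 606, 473 and 824. On the list of 15 clock genes 0 were called, but 8 had an unadjusted p under 0.05, against 4.9% of all genes. Among them the evening genes ELF4 (log2 change 0.97, limma adjusted p = 0.289), FKF1 (0.67), TOC1 (0.70) and LUX (0.50) were above 0, and so was GRP7 (0.53). The morning genes CCA1 (-0.94), LHY (-0.94) and RVE8 (-1.54) were below 0. ELF4 read 357, 539.6 and 390.0 in 2OX and 245, 181 and 226 in wild type, and CCA1 read 69.6, 52.4 and 87.1 against 104, 221 and 101. The hour of harvest of each library is not given in the labels, and its part in these values was not tested.

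The list of mitochondrial retrograde signalling had 13 genes, all tested, and 12 of them had a log2 change above 0, with a median of 0.49 against -0.01 over all genes and 47.8% of all genes above 0. UPOX was called and 0 others were. NAC013 read 148, 78.3 and 237 in 2OX and 16.0, 41.3 and 44.9 in wild type (log2 change 2.14, limma adjusted p = 0.179). The sulfotransferase gene SOT12 read 361, 482 and 463 against 162, 212 and 250 (log2 change 1.07, limma adjusted p = 0.152). NDB4, an external NAD(P)H dehydrogenase of the inner membrane, read 22.6, 18.0 and 18.0 against 0 in all 3 wild type libraries. It thus reached the filter only through 2OX. NAC017 was nearly level at 799, 818 and 846 against 808, 875 and 845. The remaining members, NAC016, NAC053, NAC078, OM66, UGT74E2, GSTU24 and GSTU25, had overlapping groups. With any 1 library left out the median of the list was between 0.36 and 0.72 and 9 to 12 members were above 0. The list was made with earlier results of these data known, and the direction of NDB4 was fixed by the filter. The count above 0 and the median are therefore no independent support for a direction.

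The alternative respiration list shares AOX1A and NDB4 with it. Of its 12 genes 8 were tested, 0 were called and 5 were above 0. NDB3 and NDB4 were under 10 in at least 1 wild type library and so reached the filter through 2OX. The count above 0 therefore depends in part on the filter. AOX1B, AOX1C, AOX1D and AOX2 were at most 9.76 in any library and were not tested. NDB3 read 69.8, 32.6 and 19.0 in 2OX and 4.0, 21.2 and 9.82 in wild type, and NDA2 read 34.7, 33.1 and 74.7 against 90.1, 85.5 and 78.4. NDA1, NDB1, NDB2 and NDC1 had overlapping groups.

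Larger lists held 0 called genes each. Their medians are read against -0.01 over all genes tested. The mitochondrial lists were taken from the study, which chose them on total RNA of the same lines, so their direction is not independent evidence. Of 25 genes for mitochondrial protein import and proteases, 22 were above 0 (median 0.15), and TOM7-2, a subunit of the outer membrane translocase, had the lowest p of them at 74.3, 105.5 and 79.9 in 2OX against 46.0, 23.0 and 23.8 (log2 change 1.51, limma adjusted p = 0.563). Of 57 mitochondrial ribosomal proteins 40 were above 0 (median 0.13), and of 58 chaperones 38 were (median 0.13). Among the chaperones HSP60-3A read 180, 242 and 232 against 130.1, 118 and 146. Of 74 genes of oxidative phosphorylation 25 were above 0 (median -0.04), and of 123 cytosolic ribosomal proteins 68 were (median 0.02). PPR proteins, which bind organelle transcripts, had 127 of 199 above 0 (median 0.17). At an unadjusted p under 0.05, 13 PPR genes were higher and 0 lower, against 2.26% and 2.64% of all genes. AT4G38010, the PPR gene of lowest p, read 20.6, 18.5 and 33.6 in 2OX and 1.0, 0 and 0 in wild type. It thus reached the filter through 2OX. The PPR counts and median therefore depend in part on the filter and are no support for a direction. When the libraries were instead set to equal sums without ribosomal RNA, the median of all genes moved to -0.08, those of import, mitochondrial ribosome and chaperones to 0.08, 0.06 and 0.06 and that of PPR proteins to 0.11, while that of cytosolic ribosomal proteins turned to -0.05. With single libraries left out, 27 (without 2OX replicate 3) to 89 (without wild type replicate 4) cytosolic ribosomal proteins were above 0, and the median ran from -0.08 to 0.10, below 0 without 2OX replicate 3 or wild type replicates 2 or 3. Over the same fits the medians ran from 0.07 to 0.21 for import, from 0.065 to 0.21 for mitochondrial ribosomes, from 0.08 to 0.20 for chaperones and from 0.14 to 0.25 for PPR proteins, while OXPHOS had 19 to 38 genes above 0 (-0.08 to 0.004).

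**Figure D3:**
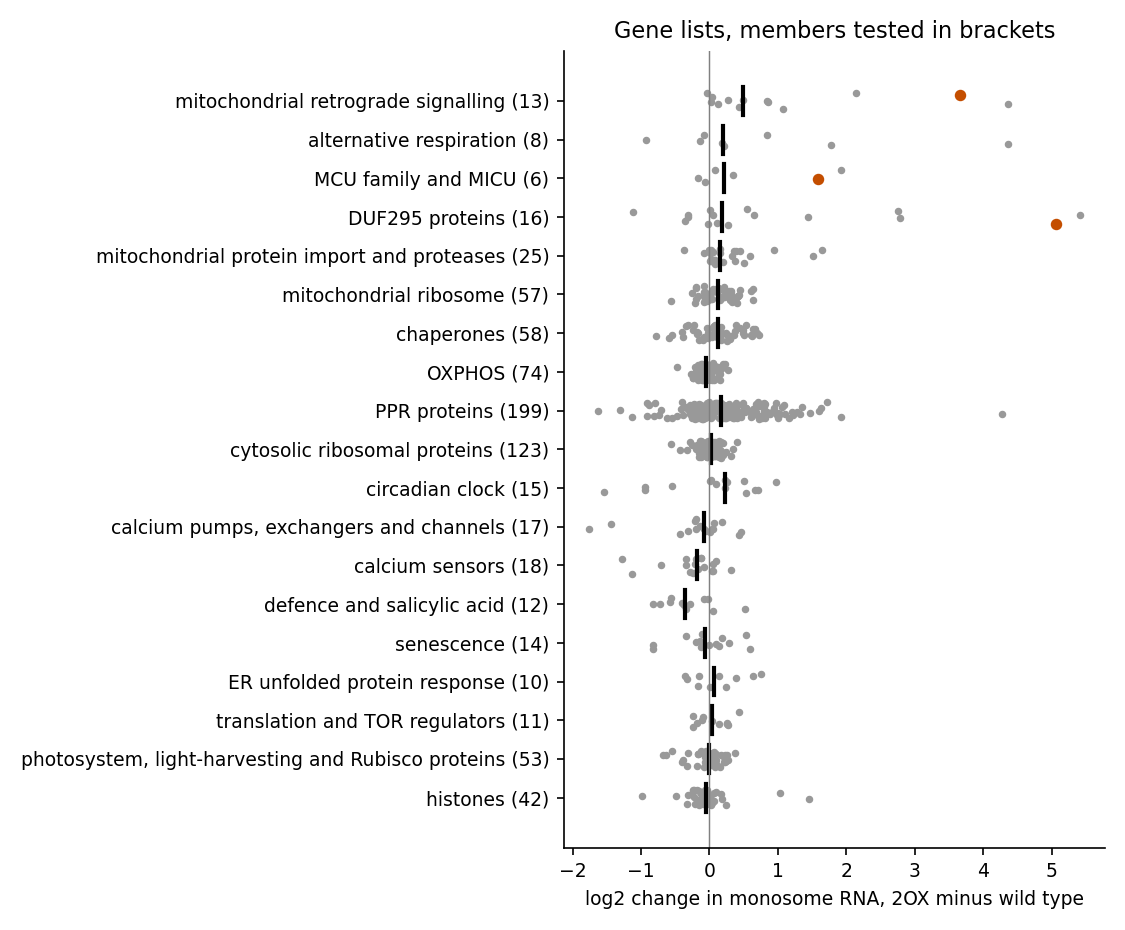
Log2 change in monosome RNA (2OX minus wild type) of each tested member of the gene lists, with the number tested in brackets. Grey points are genes that did not pass, orange points the 3 called genes (UPOX, MCU2 and AT5G52940), and black bars the medians, which run from -0.36 for defence and salicylic acid to 0.49 for mitochondrial retrograde signalling.

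Calcium and stress lists were near or below the level of all genes. Calcium pumps, exchangers and channels had 7 of 17 above 0 (median -0.08). Calcium sensors had 5 of 18 (median -0.18), and CML12, the touch-induced calmodulin-like gene, read 1422, 614 and 1187 in 2OX against 1392, 1915 and 1717 in wild type. Defence and salicylic acid genes had 2 of 12 above 0 (median -0.36, and -0.10 without wild type replicate 3). EDS1, a regulator of immunity, was the only one of them with groups apart, at 125, 123 and 156 against 184, 172 and 167 (log2 change -0.38, limma adjusted p = 0.998). Senescence genes had 6 of 14 above 0 (median -0.06), the ER unfolded protein response 6 of 10 (median 0.07) and regulators of translation and TOR 6 of 11 (median 0.03). Photosystem, light-harvesting and Rubisco genes had 26 of 53 above 0 (median -0.002), histones 12 of 42 (median -0.06) and plastid ribosomal proteins 3 of 5 (median 0.01). With single libraries left out, the medians of senescence (-0.19 to 0.07), ER unfolded protein response (-0.01 to 0.22), translation and TOR (-0.03 to 0.105), photosystem (-0.11 to 0.07) and plastid ribosomal genes (-0.09 to 0.10) took either sign.

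The same genes were set beside the polysome fraction, which came from the same genotypes and replicate numbers. All 17 genes were tested there and had the same sign. Of the 17, 14 were also called in polysome RNA (82.4%), which is 41.2% of the 34 genes called there (0.171% of 19873, with 0.146% higher and 0.0252% lower). Same-numbered monosome and polysome libraries deviated together from their group means (r = 0.10 to 0.36 over genes), so the fractions are not independent. The 3 genes that were called in monosome RNA only were SAUR20 (log2 change -0.88 in polysome RNA, limma adjusted p = 0.381), RCI2A (-0.93, limma adjusted p = 0.272) and NAC044 (0.87, limma adjusted p = 0.796).

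The difference between the fractions was tested directly and was called for 1 of 20597 genes (0.00486%), AT5G10160, and for 0 of the 17. At an unadjusted p under 0.05 there were 340 genes (1.65%), 2 of them among the 17. With same-numbered fractions as a replicate block there were 685, 4 of them among the 17, and again 1 gene was called. In NAC044 the change in polysome RNA minus that in monosome RNA was -2.41 on the log2 scale (SE 0.63, limma adjusted p = 1). In polysome RNA 2OX read 50.9, 61.5 and 38.4 and wild type 31.8, 27.6 and 21.4. In AT4G12735 it was -2.56 (SE 0.77, limma adjusted p = 1), with 67.6, 85.2 and 88.0 in 2OX polysomes and 5.75, 6.67 and 9.26 in wild type polysomes.

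**Figure D4:**
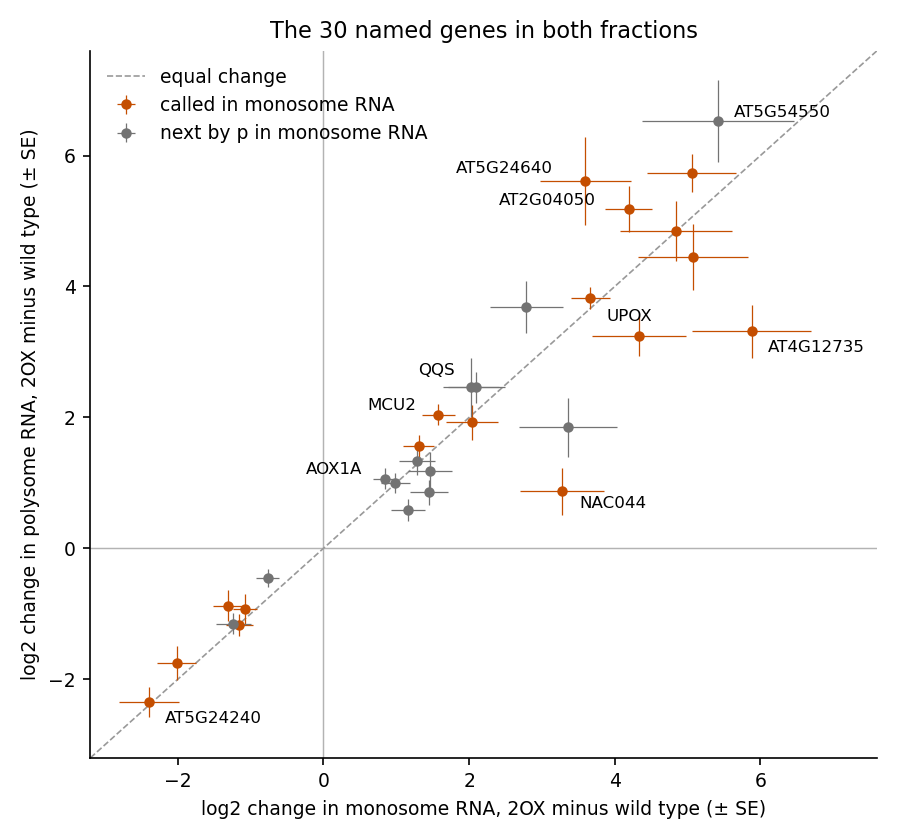
Log2 change in polysome RNA against that in monosome RNA (both 2OX minus wild type, with SE) for the 17 called genes and the next 13 by p. The dashed line marks equal change, and NAC044 and AT4G12735 lie farthest below it.

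Wild type replicates 2 and 4 are also the controls of the sextuple mutant, a knockdown of the MCU family. Its values are given side by side with no test across the comparisons, which share these controls, and on the scale of its own table. AT5G24240 read 35.6, 37.2 and 40.9 in the mutant and 223, 204 and 191 in its wild type. AT4G04223 read 199, 274 and 292 against 1339, 1191 and 1732. QQS read 429, 673 and 388 against 25.2, 93.9 and 29.9. These 3 genes are examples in which the mutant lay on the same side of wild type as 2OX, and do not stand for the named genes as a whole. Of the 5 genes that fell in 2OX, AT5G24240 and AT4G04223 were the 2 with every mutant value below every wild type value. The share over the genes tested here was 5.82%. In RCI2A, RCI2B and SAUR20 the mutant and wild type values overlapped. UPOX read 22.2, 33.5 and 14.0 in the mutant and 45.7, 33.3 and 34.8 in its wild type, and of the 12 genes that rose in 2OX only AT5G52940 had every mutant value (21.9, 14.2 and 4.82) above every wild type value (0, 2.37 and 3.89). AT2G04050 was the 1 gene of the 12 with every mutant value below. Of the genes tested here, 4.94% lay apart above and 5.82% below in that table, so 1 of 12 in each direction is near the background. Wild type replicate 1, which is in that table only, was set on the present scale through the 2 shared libraries. It lay on the wild type side of every 2OX library for all 17 called genes (2.43 for AT2G04050 and 38.9 for UPOX), but not always near the other wild type libraries. In SAUR20 it read 235, close to 2OX (197 to 216) and well under the other wild type libraries (465 to 595). In RCI2A it read 3875, between 2OX (2206 to 2939.6) and the other wild type libraries (5006 to 5882).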

How the data were processed

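RNA of monosome and polysome fractions was sequenced from poly(A) libraries, and the authors deposited 1 table for each comparison, with signals per gene adjusted for library size within that table. The adjustment method is not given in the sources used here. The processing notes name Bowtie 0.12.2 and TAIR10. The deposited signal values are not whole numbers (within 0.01, 16.7% were whole in wild type replicate 2 and 1.72% to 2.06% in the other monosome libraries), so read depth is unknown and no count test was run. Fold change and score columns of the authors' own comparisons were not used.

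Genes that reached 10 in 3 or more of the 6 libraries were tested on log2(value + 1) with limma 3.58.1 in R 4.3.3 (two-sided, variance trend, Benjamini-Hochberg over all genes tested, threshold 0.05), fitted within 1 table. The polysome libraries were fitted alike, and the difference between fractions by an interaction term. Same-numbered monosome and polysome libraries deviated together (r = 0.10 to 0.36 in 6 pairs, each best with its own number), so the number was also used as a block there. The fits were tested on simulated data. The labels do not say that replicates came from separate cultures, so p-values measure the spread between these samples, which may be technical. Named genes were all called genes, the next by p to 30 with groups apart, the MCU family and the members of each list that were called or had the lowest p. Other list members with values were added after their values were seen. Members and lists were chosen with earlier results of these data known. Of the 24712 genes listed, 24608 matched RefSeq (TAIR10.1), from which coordinates and promoters were read.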

Additional observations from a re-analysis of the deposited data

Results flagged for a closer look

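AT5G10160, which encodes a protein of the thioesterase superfamily, was the 1 gene whose 2OX change differed between the fractions in the test of the difference. The change in polysome RNA exceeded that in monosome RNA by 1.70 on the log2 scale (SE 0.25, n = 3 per group and fraction, limma adjusted p = 0.0362). In monosome RNA it read 435, 436 and 488 in 2OX and 254, 317 and 369.7 in wild type, and in polysome RNA 910.4, 1071 and 946 against 214, 182 and 223. The groups were apart in both fractions. The difference was not called without any 1 of the libraries, with quantile normalization or without a variance trend.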

How the results depend on the processing

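The count of called genes in monosome RNA was 17, and it was 8 without a variance trend (3 of them among the 17) and 10 with the replicate block (9 among the 17). With 1 library left out it ranged from 4 to 30. It stayed within 1.5 times of 17 with other pseudocounts, filters and scalings and with robust variance. In polysome RNA the count was 34, with 20 without a variance trend, 9 with the replicate block and 19 to 110 with 1 library left out. The difference between fractions was called for 1 gene, and for 0 with quantile normalization, without a variance trend and with any 1 library left out (0 to 0). Only the numbers 2 and 3 occur in both 2OX and wild type. Monosome libraries with these numbers did not deviate together (r = -0.09 and -0.08), so they share only a number. In the monosome and polysome fits with the block only these 2 pairs bear on the change. The counts with the block therefore say nothing of a weaker effect. None of the 17 genes called in monosome RNA changed sign under the alternatives run. Of the 86 other genes followed, none of which was called, 7 changed sign with 1 library left out (MCU3, APL, CRU1, CRU3, PSRP4, PSRP5 and ATMG00070) and 4 under other settings (MCU3, PSRP5, ACA8 and ATMG01270). The cause of the changed counts was not tested. Read depth is unknown, and low genes are the ones most affected by the added 1.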

Other observations

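For values side by side, the monosome libraries of wild type seedlings in liquid medium with DMSO or with 50 µM antimycin A (AA, an inhibitor of complex III) for 5 hours are in a table of their own, with its own scale, and no test was run. Every DMSO value was above every 2OX value for 76.6% of all genes tested, for 11 of the 12 genes that rose in 2OX and for 5 of the 5 that fell. For AA these were 71.0%, 11 of 12 and 4 of 5. The order alone is therefore near that of all genes. By the methods the DMSO and AA seedlings had first been in liquid medium overnight with shaking in the dark. Dark, liquid medium and DMSO cannot be told apart in these values. UPOX read 8805, 6572 and 9045 with DMSO and 11073, 9246 and 9796 with AA, against 412, 373 and 359.9 in 2OX on plates. AT2G04050 read 30104, 26083 and 32026 with DMSO, against 308, 251 and 356 in 2OX. AOX1A read 22654, 16849.5 and 15719.5 with DMSO, against 1019.6, 879.9 and 939 in 2OX.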
